A study of Homo sapiens with 14 samples.

Results

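The comparison described here asks which messages were pulled down differently by the membrane-core subunit EMC6 and by the outer subunit EMC7 of the ER membrane protein complex (EMC). For each gene it takes the log2 change from input to immunoprecipitate (IP) in the EMC6 line and subtracts the same change in the EMC7 line, so that a positive difference means stronger enrichment with EMC6 as bait. It uses 8 of the 14 libraries of the study, 2 replicates each of EMC6 input, EMC6 IP, EMC7 input and EMC7 IP, which were chosen by their labels and not by any measured value. Of 19440 gene symbols, 9273 had enough counts to be tested, and the rows of the baits, EMC6 and EMC7, were kept apart.

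All libraries came from Flp-In T-REx 293 cells, an engineered HEK293 embryonic kidney line in which a transgene is inserted at one fixed site and switched on by doxycycline. The EMC6 line carried an EMC6 knockout and expressed 3Flag-EMC6, whereas the genotype given for the EMC7 line names 3Flag-EMC7 and no knockout, so the bait differed between lines together with the genetic background. Both lines received 0.5 to 1.0 ng/mL doxycycline for 72 h. Microsomes, the ER-rich membrane fraction, were treated with nuclease and solubilized to give the input, and material bound to Flag beads gave the IP. Ribosome-protected fragments (footprints) of both were then sequenced, so a count reports ribosomes on a message and not the amount of the message. Another line of the study, which expressed 3Flag-EMC10 under the same induction (3 inputs and 3 IPs), is used only for values set beside these.

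The EMC inserts transmembrane segments into the ER membrane. EMC3 and EMC6 line the groove in the membrane through which weakly hydrophobic segments are thought to enter, and EMC7, like EMC10 and much of EMC1, carries a folded domain on the luminal side. EMC clients include some tail-anchored proteins and many proteins that span the membrane several times, while proteins with a cleaved signal peptide usually enter through the Sec61 channel.

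The 8 libraries held 515302 to 3395114 counts in genes, the lowest in EMC6 IP replicate 1, and counts outside genes made up 9.02% to 12.1% in the EMC6 line against 2.53% to 4.28% in the EMC7 line. The inputs differed before any IP: genes of the lists of ER-made proteins held 21.2% and 26.2% of counts in the EMC6 inputs and 38.1% and 36.9% in the EMC7 inputs. In the IPs these shares were 38.2% and 41.1% with EMC6 and 46.7% and 45.5% with EMC7. The messages LSM4 and MAP4, which encode proteins made in the cytosol, together held 5.38% and 7.36% of counts in the EMC6 inputs and 11.3% and 13.4% in the EMC6 IPs, against at most 0.0201% in the EMC7 line. Of 5 markers of HEK293 cells, LHX1 and NEFM were at 0 and the rest summed to 377 to 1862 CPM, while the markers of hepatocytes, blood and endothelium did not sum above 1.04 CPM and those of fibroblasts not above 19.1 CPM. For these markers CPM, counts scaled to a common library total, are not normalised further, and all CPM below also carry the normalisation between libraries (TMM). Line, bait, knockout and these library properties cannot be told apart in this design, and their part in the results was not tested.

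The bait rows checked the labels. EMC6 stood at 19.8 and 31.2 CPM in the EMC6 inputs, 4637 and 4866 in the EMC6 IPs, 28.5 and 30.4 in the EMC7 inputs and 78.2 and 51.4 in the EMC7 IPs. The EMC6 row was thus high in the EMC6 IPs alone, and its difference was 6.38 ± 0.36 (log2 ± SE, edgeR's quasi-likelihood test with Benjamini-Hochberg adjustment, adjusted p = 1.46e-08). EMC7 stood at 117 and 139 CPM in the EMC6 inputs, 774 and 1655 in the EMC6 IPs, 4532 and 4990 in the EMC7 inputs and 250600 and 246700 in the EMC7 IPs. Its difference was -2.45 ± 0.34 (adjusted p = 0.004), and the EMC7 message alone held 14.4% and 15.0% of counts in the EMC7 IPs, whereas EMC6 held 0.449% and 0.431% in the EMC6 IPs. The counts do not separate a transgene's message from that of the cell's own gene.

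Among the genes called with input and IP as pairs, those of multi-pass transporters, pumps and lipid enzymes were mostly higher with EMC6, and those of type II Golgi and lysosomal enzymes mostly lower. For ER luminal, type I and secreted proteins the balance of calls depended on the scaling of the libraries. Few single genes passed when input and IP were treated as independent libraries: 3 of 9273 genes were higher with EMC6 (0.0324%) and 1 was lower (0.0108%), together 0.0431%. At an unadjusted p under 0.05 that fit held 256 higher and 372 lower genes. Without EMC7 IP replicate 2 it called 0 genes in either direction, and without EMC6 input replicate 1 it called 5 higher and 42 lower. The labels give each library a batch equal to its replicate number, and each IP was made from an input, so input and IP were also fitted as pairs within each line. This takes the batch to hold within a line. The same numbers recur in both lines, and a block shared by lines gave 3 higher and 0 lower genes. With pairs, 240 genes (2.59%) were higher with EMC6 and 304 (3.28%) were lower, 5.87% in all. Of these 544 genes, 357 had an unadjusted p under 0.05 without pairing. Treating the pair as a random block in limma's voom gave 74 higher (0.798%) and 95 lower genes (1.02%), 1.82% in all, and 168 of the 544 were called the same way there. Leaving out EMC7 replicate 2 reduced the paired counts to 108 and 170, and leaving out EMC6 replicate 1 or 2 gave 168 or 166 lower genes. Calls below are those of the paired fit unless stated, and adjusted p-values are from edgeR's quasi-likelihood test. Counts of list members with TMM stand against the shares over all genes, 2.59% higher and 3.28% lower. Counts with scaling on library size alone stand against 808 higher and 120 lower of all 9273 genes. Those with scaling on the secreted, luminal and lysosomal lists stand against 533 and 140. Few or 0 calls in a small list can lie near these shares. A pair fit leaves 2 residual degrees of freedom, to which the test adds information from the spread of all genes. The common dispersion, a measure of spread beyond sampling, was 0.0232 without pairing and 0.00363 with pairs. Small p-values with pairs thus rest largely on spread shared by all genes, and little on a gene's own replicates. The labels do not tell whether the replicates were separate cultures, and the p-values may thus rest on technical spread alone.

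**Figure D1:**
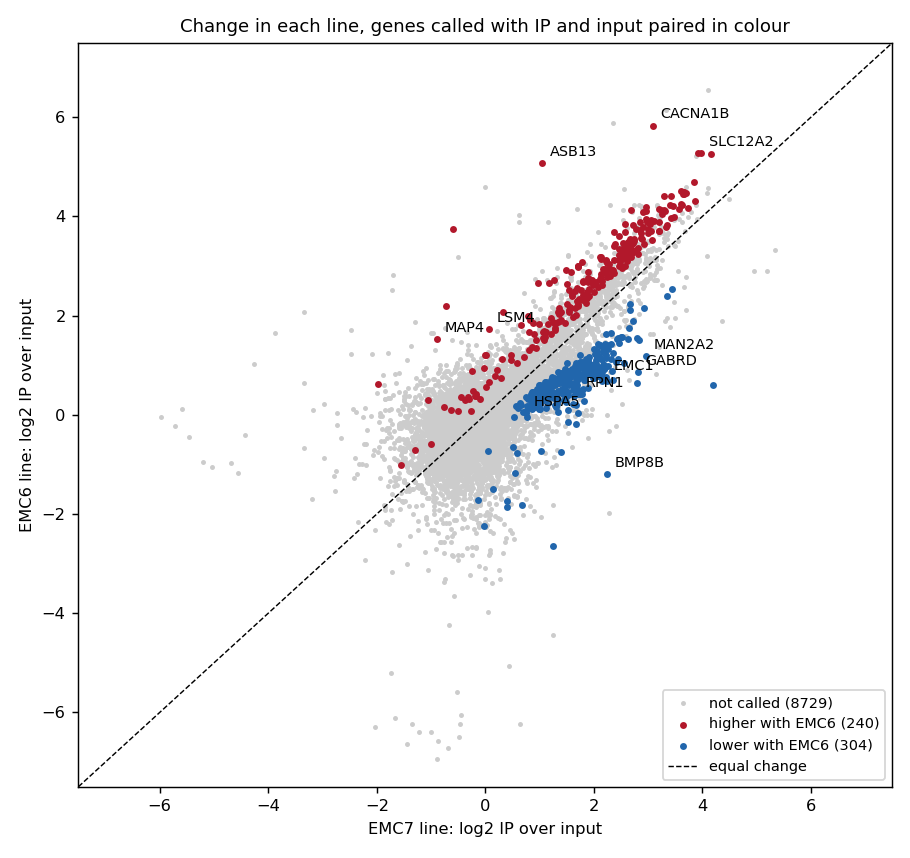
Change from input to IP (log2) in the EMC7 line (horizontal) and in the EMC6 line (vertical), 1 point per gene, with the 240 genes higher and the 304 genes lower with EMC6 in colour and the line of equal change dashed. The higher genes have median changes of 2.87 with EMC6 and 2.11 with EMC7, and the lower genes of 0.68 and 1.62.

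The 240 genes that were higher with EMC6 had median changes from input to IP of 2.87 with EMC6 and 2.11 with EMC7 (log2). For the 304 lower genes these medians were 0.68 and 1.62. Both sets were thus enriched in both lines by their medians, and they differed in degree.

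Where the difference lay depended on how the libraries were scaled, and this comes before any statement about a gene. The trimmed mean of M-values (TMM) sets the middle of all genes near 0. With it the EMC6 inputs were above the EMC7 inputs for 583 genes (6.29%) and below them for 1570 (16.9%), 23.2% in all. The EMC6 IPs were above the EMC7 IPs for 273 genes (2.94%) and below them for 1222 (13.2%), 16.1% in all. Of the genes called for the difference, 195 of the 240 higher genes were placed in the inputs, 12 in the IPs and 33 in neither. Placed in the inputs means that the EMC6 inputs were below the EMC7 inputs by the test while the IPs were not called in the direction of the difference. Both of these comparisons come from the fit without pairing, since the pair fit cannot compare the lines within a fraction. Of the 304 lower genes, 286 were placed in the IPs, 6 in the inputs and 12 in neither. The higher genes had median log2 ratios of the EMC6 over the EMC7 line of -0.35 in the IPs and -1.06 in the inputs, and the lower genes -1.82 in the IPs and -0.90 in the inputs. By these medians the sets were close in the inputs and apart in the IPs. With the EMC6 inputs low for both sets, higher genes tend to be placed in the inputs and lower genes in the IPs. The place with TMM therefore largely follows the sign of the difference. Scaling on the secreted, luminal and lysosomal lists, which sets those lists level between libraries, gave 533 higher genes, of which 340 were placed in the IPs, 81 in the inputs, 14 in both and 98 in neither, and 140 lower genes, of which 110 were in the IPs. Scaling on library size alone gave 808 higher genes, 279 in the IPs and 353 in the inputs, and 120 lower genes, 109 in the IPs. The placing of the lower genes in the IPs was thus the larger class under all 3 scalings, whereas the higher genes moved from inputs to IPs under the list scaling. These scalings moved the median difference of all genes from 0.02 with TMM to 0.24 (lists) and 0.33 (library size), and the value of a list is therefore written below as a relative median, its median minus that of all genes.

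**Figure D2:**
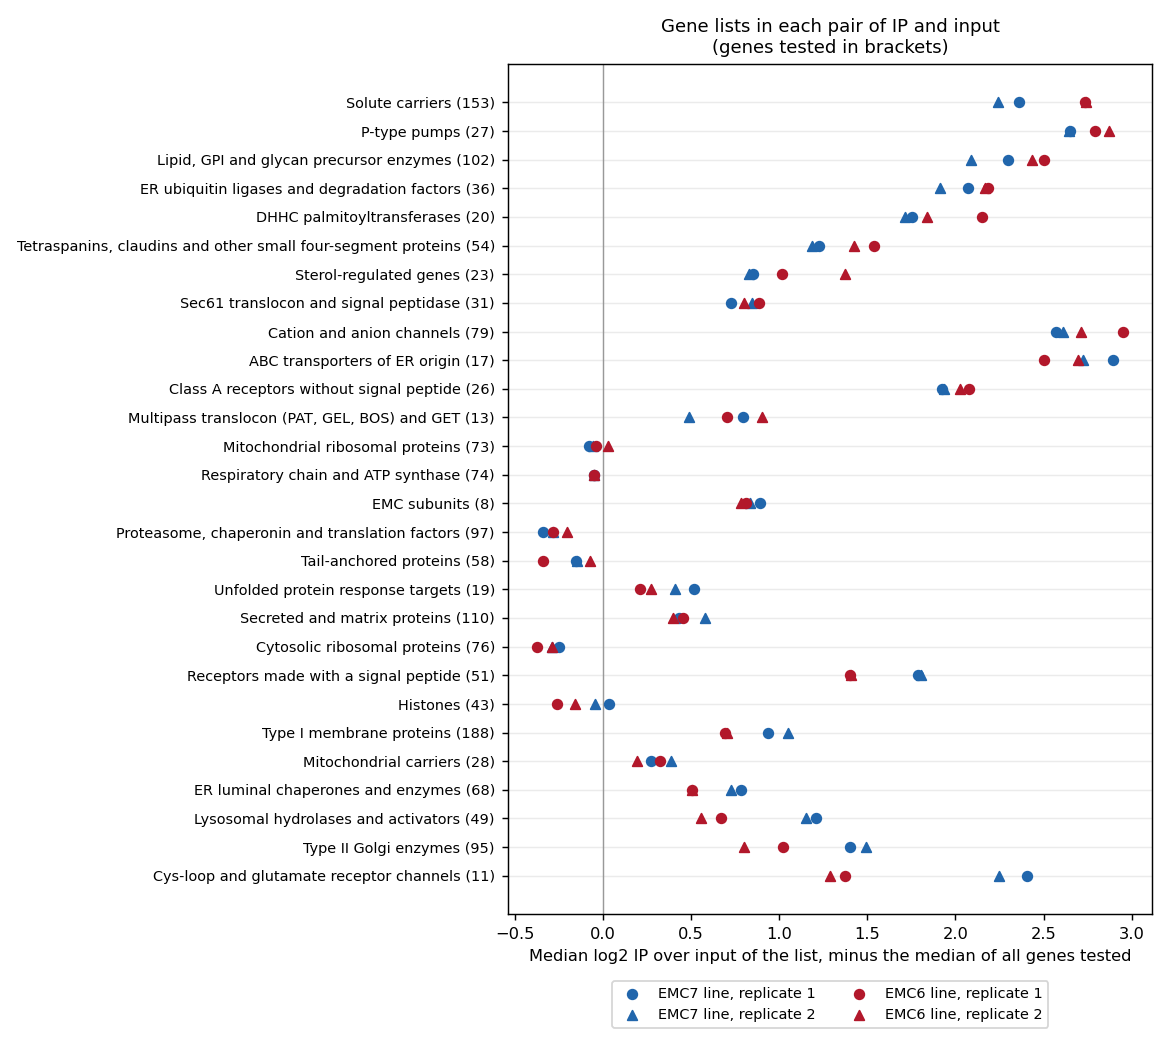
Median log2 IP over input of each gene list minus the median of all genes tested (horizontal), for 28 lists (rows, sorted by the difference between lines), with 1 point per pair of IP and input. Both EMC6 pairs lie above both EMC7 pairs for solute carriers, pumps and lipid enzymes (2.74 and 2.74 against 2.36 and 2.24 for solute carriers), and below them for type II Golgi enzymes and lysosomal hydrolases.

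Among transporters, the solute carriers, which move ions, sugars, amino acids and other small molecules across membranes through many transmembrane segments, held the largest number of called genes. Of 153 tested, 52 were higher with EMC6 and 0 were lower, and 129 lay above the median of all genes. The relative median of the list was 2.89 for the change with EMC6 and 2.38 with EMC7, and 0.50 for the difference. The last value was 0.28 without EMC6 input replicate 1 or without EMC6 IP replicate 2, and 0.78 without EMC6 input replicate 2. The called members ranged from 0.48 (SLC6A15) to 1.71 (SLC2A3), a glucose transporter. SLC12A2, the Na-K-Cl cotransporter, was at 275 and 367 CPM in the EMC6 inputs, 11900 and 12810 in the EMC6 IPs, 845 and 819 in the EMC7 inputs and 14500 and 11740 in the EMC7 IPs. Its IPs overlapped between lines, while both EMC6 inputs were below both EMC7 inputs. The difference of SLC12A2 was 1.30 ± 0.11 with pairs (adjusted p = 4.11e-27) and 1.29 ± 0.26 without (adjusted p = 0.107), and it was placed in the inputs. SLC2A6 (1.30), SLC16A13 (1.29) and, outside the list, the Golgi sulphate-donor carrier SLC35B2 (1.29) were also placed in the inputs, whereas SLC43A1, an amino acid transporter, at 0.80 was placed in the IPs. Of the 52 called carriers, 45 were placed in the inputs, 1 in the IPs and 6 in neither with TMM. Library size alone raised the called carriers to 77 and the list scaling to 69, with 0 lower in both.

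P-type pumps, which use ATP to move cations or to flip lipids, behaved like the solute carriers by count: 10 of 27 were higher and 0 were lower, with a relative median difference of 0.40. That median was 0.12 without EMC6 input replicate 1 or without EMC6 IP replicate 2, 0.26 without EMC7 input replicate 1 and 0.61 without EMC6 input replicate 2. The phospholipid flippase ATP11B was at 54.7 and 92.2 CPM in the EMC6 inputs, 1105 and 1425 in the EMC6 IPs, 133 and 115 in the EMC7 inputs and 1300 and 1063 in the EMC7 IPs. Its paired difference was 0.86 ± 0.14 (adjusted p = 2.77e-07) and lay in the inputs. ATP9A at 0.75 and the calcium pump ATP2A2 at 0.35 were also higher.

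Enzymes that build lipids, GPI anchors and glycan precursors within the ER membrane gave 34 higher and 4 lower of 102 tested, with a relative median difference of 0.39 (0.24 without EMC6 input replicate 1 and 0.61 without EMC6 input replicate 2). GPAT3, a glycerol-3-phosphate acyltransferase, was at 34.5 and 49.2 CPM in the EMC6 inputs, 573 and 617 in the EMC6 IPs, 114 and 112 in the EMC7 inputs and 809 and 679 in the EMC7 IPs. Both its IPs and its inputs lay below those of the EMC7 line, and the gap was wider in the inputs (-1.43 ± 0.23, adjusted p = 0.00024) than in the IPs (-0.32 ± 0.21, adjusted p = 0.35). The paired difference of GPAT3 was 1.10 ± 0.17 (adjusted p = 5.27e-09). Higher members also included the lysophospholipid acyltransferase MBOAT1 (1.20), the phosphatidylserine synthase PTDSS1 (0.99) and the acyltransferases HHAT (0.99) and PORCN (0.96), which modify Hedgehog and Wnt proteins. The 4 lower members, named after their values were seen, were PGAP1 (-0.97), PIGS (-0.95), PIGN (-0.62) and PIGO (-0.43). They remodel GPI anchors (PGAP1), attach them to proteins (PIGS) or add ethanolamine phosphate to them (PIGN and PIGO). PGAP1 was at 64.4 and 88.5 CPM in the EMC6 inputs, 186 and 260 in the EMC6 IPs, 166 and 185 in the EMC7 inputs and 1066 and 932 in the EMC7 IPs, so its IPs did not overlap, and its difference was placed in the IPs.

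Cation and anion channels were the list with the highest median enrichment with EMC6, 3.08 relative to all genes, and stood at 2.87 with EMC7. Of 79 tested, 7 were higher and 1 was lower, and the relative median difference of 0.18 turned sign in 1 of 20 alternative settings, at -0.15 without EMC6 input replicate 1. The value reached 0.58 without EMC6 input replicate 2 and 0.37 without EMC6 IP replicate 1, and was 0.09 or less without EMC6 IP replicate 2, EMC7 input replicate 1 or EMC7 IP replicate 2. CACNA1B, the pore of the N-type calcium channel, rested on 3 and 8 counts in the EMC6 inputs against 40 and 132 in the EMC6 IPs, and on 56 and 20 against 121 and 80 in the EMC7 line. Its difference was 2.72 ± 0.46 (adjusted p = 2.79e-07) and lay in the inputs, where the counts are fewest. HCN2, a pacemaker channel, differed by 1.41 (in neither), and PIEZO1, a mechanically gated channel, by 0.81 ± 0.12 (adjusted p = 2.29e-09). PIEZO1 was at 2826 and 3734 CPM in the EMC6 IPs and 2369 and 1731 in the EMC7 IPs, with overlapping inputs of 212 and 305 against 295 and 267, and was placed in the IPs. The 1 lower channel was MCOLN2, a lysosomal cation channel, at -1.34 ± 0.26 (adjusted p = 1.76e-05), in the IPs.

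ABC transporters split: ABCC4 was higher (0.77 ± 0.12, in the inputs), and the lipid transporters ABCA5 (-0.97 ± 0.22) and ABCA3 (-0.93 ± 0.14) were lower, both in the IPs. The other 14 of 17 were not called. ABCA5 was at 118 and 166 CPM in the EMC6 IPs and 593 and 534 in the EMC7 IPs, against inputs of 26.4 and 28.3 and of 55.5 and 54.6. Of 20 palmitoyltransferases of the DHHC family, ZDHHC18 (1.04) and ZDHHC17 (0.97) were higher, and 18 of 20 lay above the median of all genes. Tetraspanins, claudins and other small 4-segment proteins gave 3 higher of 54, PMP22 (0.82), TSPAN7 (0.71) and the connexin GJA1 (0.47), and 46 of 54 lay above that median. Of 26 class A receptors made without a signal peptide none was called, 15 lay above the median, and the relative median of 0.13 ranged from -0.13 (without EMC6 input replicate 1) to 0.83 (without EMC6 input replicate 2).

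Messages of the machinery of the ER membrane followed both directions. Of 36 ER ubiquitin ligases and degradation factors, 10 were higher and 2 lower. The multi-pass ubiquitin ligase RNF26 was at 18.6 and 26.8 CPM in the EMC6 inputs, 812 and 941 in the EMC6 IPs, 50.5 and 51.9 in the EMC7 inputs and 989 and 843 in the EMC7 IPs. Its IPs overlapped, its inputs did not, and its difference of 1.10 ± 0.19 (adjusted p = 6.49e-07) was placed in the inputs. PSEN2, the catalytic subunit of a γ-secretase, followed at 0.97, and the ligases RNF145 (0.83) and RNF139 (0.80) were also higher. RHBDF2, an inactive rhomboid (-0.94), and TMEM259 (-0.55) were the 2 lower members, both in the IPs.

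Of 31 messages for the Sec61 channel, signal peptidase and oligosaccharyltransferase, 7 were higher and 2 were lower, and the pairs of the lines overlapped in the list median. STT3A and RPN1 are subunits of the same oligosaccharyltransferase and differed in direction. STT3A, the multi-pass catalytic subunit, was at 694 and 789 CPM in the EMC6 inputs, 13160 and 12210 in the EMC6 IPs, 1963 and 1962 in the EMC7 inputs and 20660 and 17990 in the EMC7 IPs. Its difference was 0.80 ± 0.11 (adjusted p = 8.36e-11) and lay in the inputs, with the EMC6 line below the EMC7 line in both fractions. RPN1, a single-pass subunit with a large luminal domain, was at 682 and 709 CPM in the EMC6 inputs, 916 and 941 in the EMC6 IPs, 1456 and 1523 in the EMC7 inputs and 4836 and 4895 in the EMC7 IPs. Its change was 0.42 with EMC6 and 1.71 with EMC7, a difference of -1.29 ± 0.12 with pairs (adjusted p = 2.75e-25) and -1.29 ± 0.24 without (adjusted p = 0.0614), placed in the IPs. The catalytic paralogue STT3B (0.45), the channel subunits SEC61A1 (0.51) and SEC61A2 (0.67), SSR2 (0.56), SRPRB (0.61) and TRAM2 (1.43) were higher, and MAGT1, a partner of STT3B, was lower (-0.47).

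In the list of the multipass translocon and the tail-anchor receptor, 2 of 13 were higher and 1 lower. CCDC47 (0.47 ± 0.11, adjusted p = 0.00104) of the PAT complex and TMEM147 (0.53 ± 0.13, adjusted p = 0.00185) of the BOS complex were placed in the inputs. NCLN, which partners TMEM147 and has a large luminal domain, was lower at -0.94 ± 0.15 (adjusted p = 6.54e-08) and placed in the IPs: it was at 255 and 246 CPM in the EMC6 IPs and 1546 and 1560 in the EMC7 IPs, against inputs of 95.8 and 104 and of 318 and 334.

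Type II Golgi enzymes, which build and trim glycans and are held in the membrane by 1 uncleaved N-terminal segment with the catalytic domain in the lumen, were more enriched with EMC7. Of 95 tested, 27 were lower with EMC6, 0 were higher, and 11 lay above the median of all genes. The relative median of the change was 0.96 with EMC6 and 1.55 with EMC7, and the difference of -0.57 ranged from -0.82 to -0.26 over 20 alternative settings, the last without EMC6 input replicate 2. MAN2A2, an α-mannosidase, was at 33.4 and 69.8 CPM in the EMC6 inputs, 66.2 and 161 in the EMC6 IPs, 92.6 and 84.3 in the EMC7 inputs and 719 and 662 in the EMC7 IPs. Both EMC7 IPs were far above both EMC6 IPs, and its difference of -1.82 ± 0.19 (adjusted p = 1.11e-17) was placed in the IPs. HS6ST1, a heparan sulphate sulphotransferase, differed by -1.65 ± 0.37 on 6 and 26 counts in the EMC6 IPs. The heparan sulphate polymerase EXT1 (-1.49), the mannosidase MAN2A1 (-1.46) and the branching enzyme MGAT5 (-1.29) were also lower, and the smallest called difference was that of GALNT2 (-0.59). All 27 were placed in the IPs with TMM. With library size alone 15 were lower and 1 was higher, and with the list scaling 16 and 0.

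Lysosomal hydrolases and activators, mostly soluble proteins made with a signal peptide, gave 21 lower and 0 higher of 49 with TMM. All 21 were placed in the IPs, and the relative medians were 0.62 with EMC6 and 1.29 with EMC7. Library size alone gave 14 lower and 4 higher, and the list scaling 15 and 1. The galactosylceramidase GALC (-1.53), the GPI-anchored hyaluronidase HYAL2 (-1.49) and the β-glucuronidase GUSB (-1.48) led. The cathepsins CTSD (-0.55) and CTSC (-0.47) had the smallest called differences. HYAL2 was at 22.1 and 18.8 CPM in the EMC6 IPs and 110 and 109 in the EMC7 IPs, against inputs of 16.7 and 18.4 and of 34.0 and 34.6. It was thus near its input with EMC6 (0.20) and above it with EMC7 (1.68).

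ER luminal chaperones and enzymes gave 25 lower and 2 higher of 68 with TMM, 14 lower and 12 higher with library size alone, and 18 lower and 10 higher with the list scaling. The relative median of -0.26 was 0.01 without EMC6 input replicate 2, -0.11 without EMC6 IP replicate 1 and -0.48 without EMC6 input replicate 1. HSPA5, the major ER chaperone of the Hsp70 family, was at 2324 and 1800 CPM in the EMC6 inputs, 2371 and 1857 in the EMC6 IPs, 4889 and 5437 in the EMC7 inputs and 8137 and 9205 in the EMC7 IPs. Its change was 0.03 with EMC6 and 0.75 with EMC7, a difference of -0.71 ± 0.11 (adjusted p = 1.65e-08) in the IPs. HSPA13 (-1.15), the glycosyltransferases POGLUT3 (-1.25) and POFUT2 (-1.15), the folding sensors UGGT1 (-1.05) and UGGT2 (-1.08) and the chaperone CALR (-0.82) were lower. ERP29 (0.56 ± 0.14) and TXNDC5 (0.41 ± 0.13), members of the disulphide isomerase family, were the 2 higher, both in the inputs. Within the list of unfolded protein response targets, HSPA5 was the 1 called gene of 19.

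Type I membrane proteins, single-pass receptors and adhesion molecules with a signal peptide, gave 37 lower and 1 higher of 188. The laminin receptor subunit ITGA6 was at 130 and 179 CPM in the EMC6 inputs, 172 and 235 in the EMC6 IPs, 287 and 243 in the EMC7 inputs and 988 and 825 in the EMC7 IPs. Its difference was -1.38 ± 0.15 (adjusted p = 4.49e-16), placed in the IPs. The giant cadherin FAT3 (-1.27) and the Wnt co-receptors LRP6 (-1.13) and LRP5 (-0.91) were lower too, and the syndecan SDC2 (0.64) was the 1 higher gene. Library size alone, which shifts all genes upwards, gave 24 higher and 10 lower, and the list scaling 13 and 13. The relative median of -0.21 was -0.20 and -0.18 under these scalings. It was 0.03 without EMC6 IP replicate 1, 0.11 without EMC6 input replicate 2, -0.40 without EMC6 input replicate 1, -0.38 without EMC6 IP replicate 2 and -0.10 without EMC7 input replicate 2.

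A pair of lists held multi-pass proteins that begin with a signal peptide. Of 51 receptors of this kind 14 were lower and 0 were higher with TMM, against 5 and 4 with library size alone and 5 and 2 with the list scaling. TM9SF1 (-1.02), the Golgi proteins GPR107 (-0.95), TMEM87B (-0.94) and TMEM87A (-0.89), the Wnt and Hedgehog receptors FZD6 (-0.72) and SMO (-0.71), and LGR4 (-0.69), LGR5 (-0.79) and CELSR1 (-0.74) were among them. GPR107 was at 190 and 273 CPM in the EMC6 IPs and 760 and 746 in the EMC7 IPs, against inputs of 100 and 145 and of 205 and 211. The relative median of this list, -0.11, ranged from -0.47 (without EMC6 IP replicate 2) to 0.11 (without EMC6 input replicate 2). Cys-loop and glutamate receptor channels, whose N-terminal domain lies in the lumen, gave 5 lower and 0 higher of 11, and a relative median of 1.55 with EMC6 against 2.54 with EMC7. For the difference the relative median of -1.04 was -0.49 without EMC6 input replicate 2. GABRD, a GABA receptor subunit, was at 6.59 and 6.24 CPM in the EMC6 inputs, 6.01 and 15.3 in the EMC6 IPs, 8.01 and 6.91 in the EMC7 inputs and 44.1 and 63.7 in the EMC7 IPs. Both EMC7 IPs lay above the other 6 libraries, and its difference of -1.97 ± 0.56 (adjusted p = 0.0101) was placed in the IPs, on 3 and 13 counts in the EMC6 IPs. GRID1 (-1.07), GLRB (-0.85) and CHRNA5 (-0.72) were also among the 5.

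**Figure D3:**
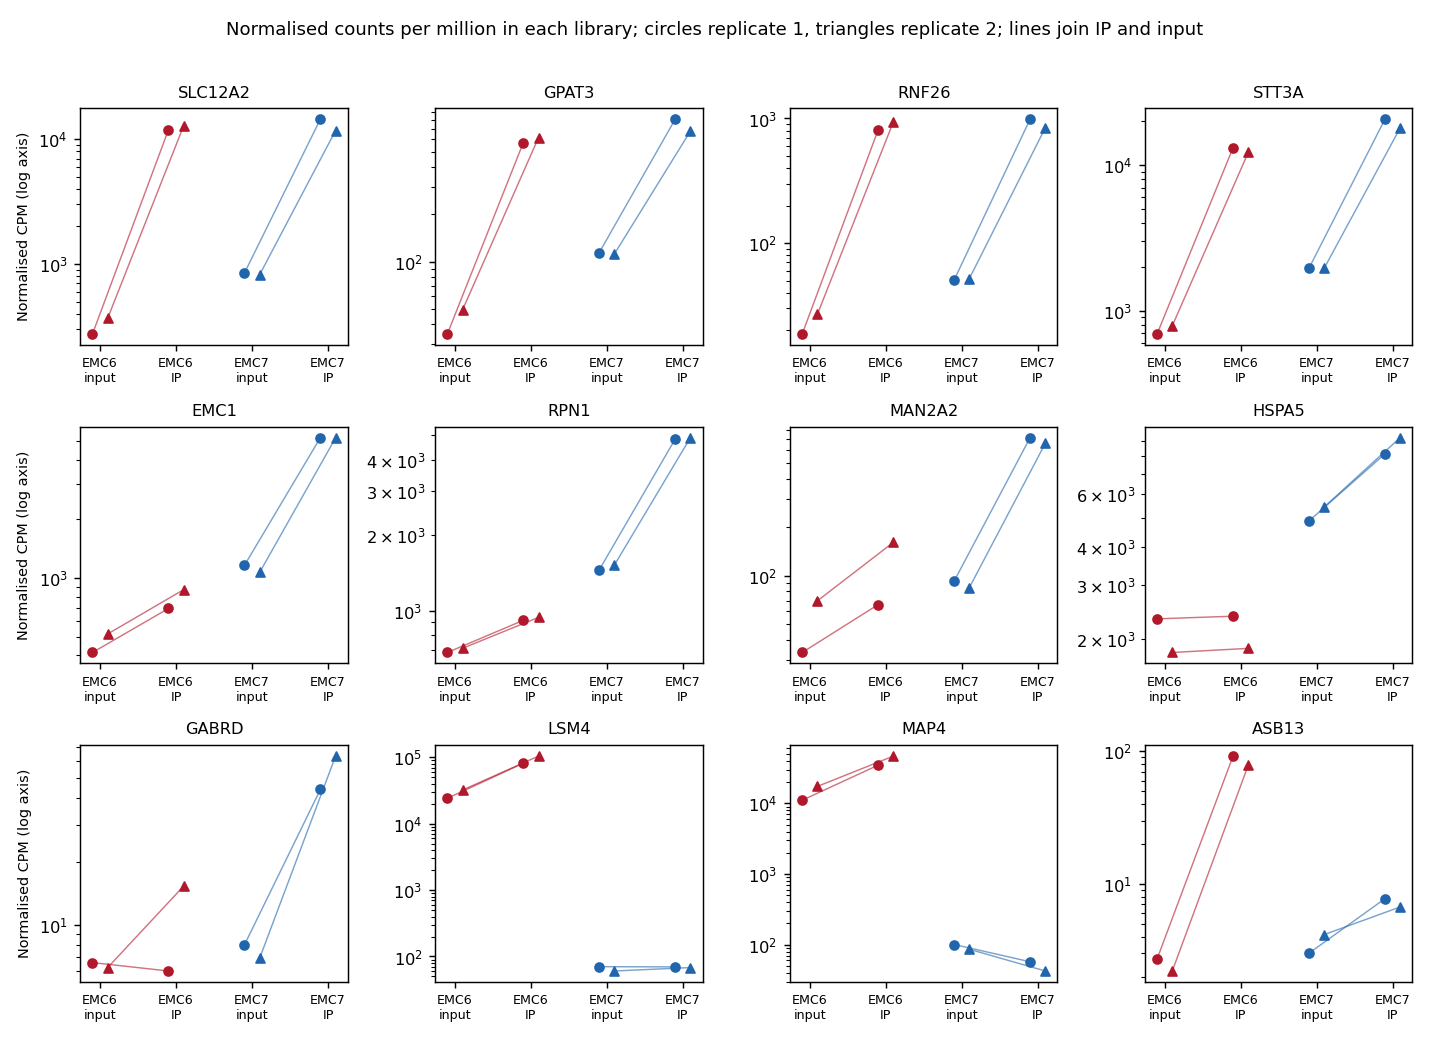
Normalised CPM (log axis) of 12 genes in each library of the 4 groups, circles for replicate 1 and triangles for replicate 2, with lines joining input and IP of a pair. With TMM the rule places SLC12A2, GPAT3, RNF26 and STT3A in the inputs, and EMC1, RPN1, MAN2A2, HSPA5 and GABRD in the IPs. The inputs of HSPA5, EMC1 and RPN1 were also lower in the EMC6 line (-1.324, -1.255 and -1.098, log2), as was that of RNF26 (-1.167). LSM4 and MAP4 are high in both fractions of the EMC6 line.

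Secreted and matrix proteins were divided, with 6 higher and 18 lower of 110 with TMM, but 17 and 1 with library size alone and 13 and 3 with the list scaling. Their relative median of -0.07 ranged from -0.41 (without EMC6 IP replicate 2) to 0.29 (without EMC6 input replicate 2). The 6 higher genes were named after their values were seen. They were the chains of the basement membrane collagen COL4A5 (0.90), COL4A1 (0.81), COL4A2 (0.68) and COL4A6 (0.59), the fibrillar collagen COL2A1 (0.58) and the fibrillin FBN2 (0.33). COL4A1 was at 907 and 1330 CPM in the EMC6 inputs, 1247 and 1633 in the EMC6 IPs, 1877 and 1341 in the EMC7 inputs and 1267 and 1087 in the EMC7 IPs. It was therefore above its input in both EMC6 pairs and below its input in both EMC7 pairs, and its difference of 0.81 ± 0.12 (adjusted p = 5.95e-10) was placed in neither fraction. The guidance factors SEMA3A (-1.10) and SEMA3D (-1.06) led the lower genes, and the laminin chains LAMA1 (-0.64), LAMB1 (-0.43), LAMB2 (-0.57) and LAMC1 (-0.46) and the nidogens NID1 (-0.62) and NID2 (-0.39), which share the basement membrane with COL4A1, were lower as well.

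**Figure D4:**
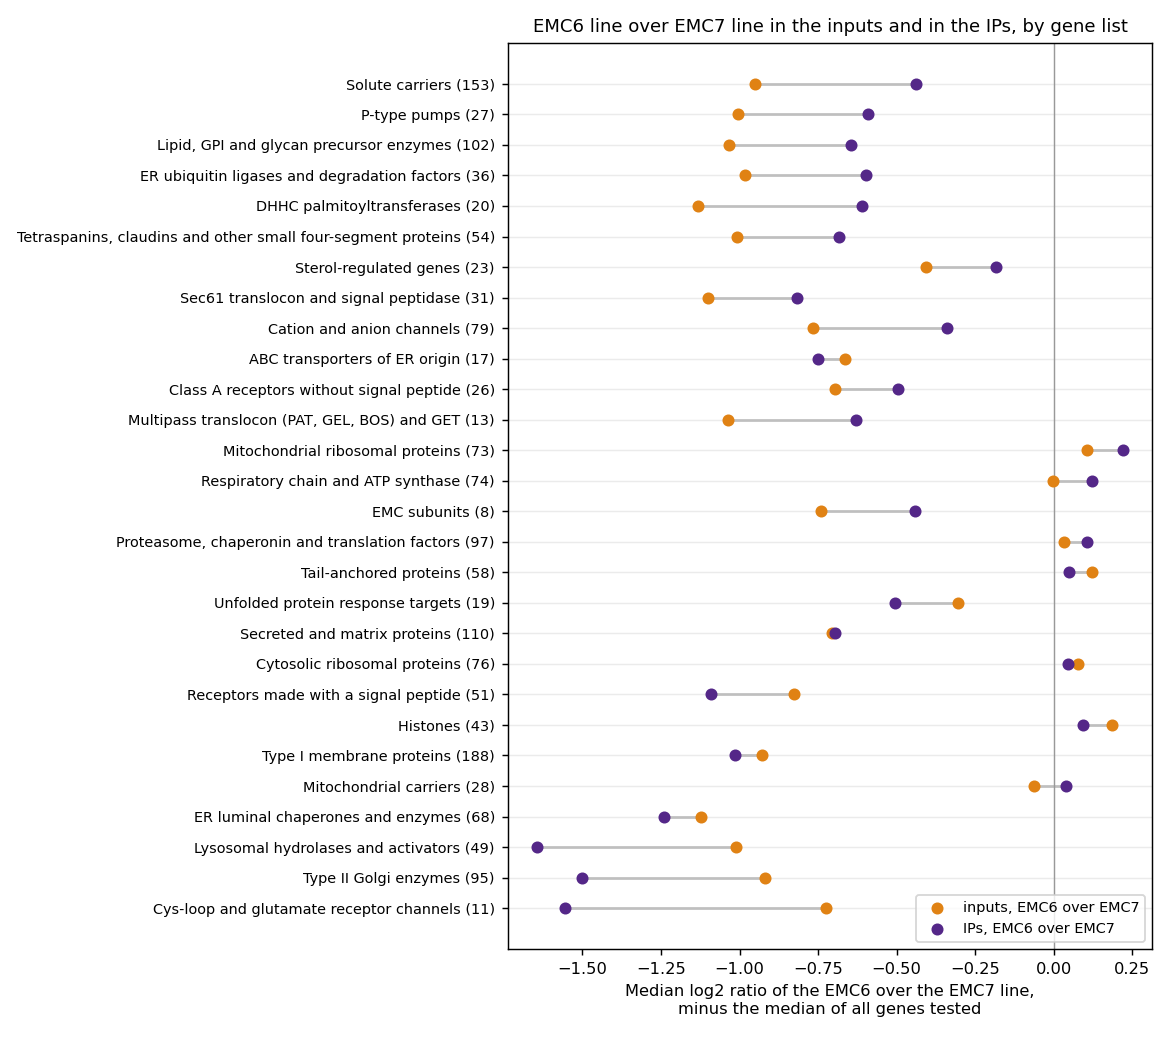
Median log2 ratio of the EMC6 over the EMC7 line for each of 28 gene lists (rows), minus the median of all genes, in the inputs and in the IPs. Lists of ER-made proteins are below 0 in both fractions, with the IP point above the input point for solute carriers and lipid enzymes and below it for type II Golgi enzymes, lysosomal hydrolases and Cys-loop channels.

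In lists of proteins made outside the ER, or inserted after translation, nearly no gene was called with TMM. The share over all genes was 5.87%, so 0 calls in a small list say little. Tail-anchored proteins, which are inserted after release from the ribosome and only in part by the EMC, gave 0 of 58. Their relative medians were -0.15 with EMC6 and -0.07 with EMC7. Mitochondrial carriers gave 0 of 28, the respiratory chain and ATP synthase 0 of 74, mitochondrial ribosomal proteins 0 of 73, cytosolic ribosomal proteins 0 of 76 and proteasome, chaperonin and translation factors 0 of 97. Library size alone gave 0, 5, 3, 8 and 8 higher genes in these lists, in the same order, and 0 lower. Of 43 histones, H2BC11 was lower (-0.81), in the inputs. Among sterol-regulated genes 4 of 23 were higher, NSDHL (0.76), DHCR7 (0.69) and SCD (0.40) among them. In the lists of ribosomal, mitochondrial and proteasome proteins, the medians of the EMC6 line over the EMC7 line were 0.05 to 0.23 (log2) in the IPs and 0.01 to 0.18 in the inputs with TMM.

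The complex's own messages behaved unlike each other. EMC1, the largest subunit, a single-pass protein with a large luminal domain, was at 414 and 515 CPM in the EMC6 inputs, 696 and 868 in the EMC6 IPs, 1155 and 1063 in the EMC7 inputs and 5206 and 5192 in the EMC7 IPs. It was the 1 gene called lower without pairing, at -1.48 ± 0.26 (adjusted p = 0.0485), and with pairs its difference was -1.48 ± 0.12 (adjusted p = 9.74e-32), placed in the IPs. It was called in 11 of 20 alternative settings, with values from -1.65 to -1.17. The multi-pass subunits EMC3 and EMC4 were not called: EMC3 changed by 3.40 with EMC6 and 3.48 with EMC7, a paired difference of -0.09 ± 0.13 (adjusted p = 0.864), and EMC4 by 3.67 and 3.36, a difference of 0.31 ± 0.15 (adjusted p = 0.351). The difference of EMC10, an outer subunit with a luminal domain, was -0.10 ± 0.18 (adjusted p = 0.912) and that of MMGT1 (EMC5) 0.40 ± 0.28 (adjusted p = 0.623). The soluble cytosolic subunits EMC2 (0.30 ± 0.51), EMC8 (0.15 ± 0.61) and EMC9 (-0.53 ± 1.01) rested on 1 to 73 counts per library, so that only large differences could have been seen. EMC10 was lower in both fractions of the EMC6 line, at 99.7 and 64.6 against 284 and 352 CPM in the inputs and at 138 and 96.3 against 459 and 515 in the IPs.

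**Figure D5:**
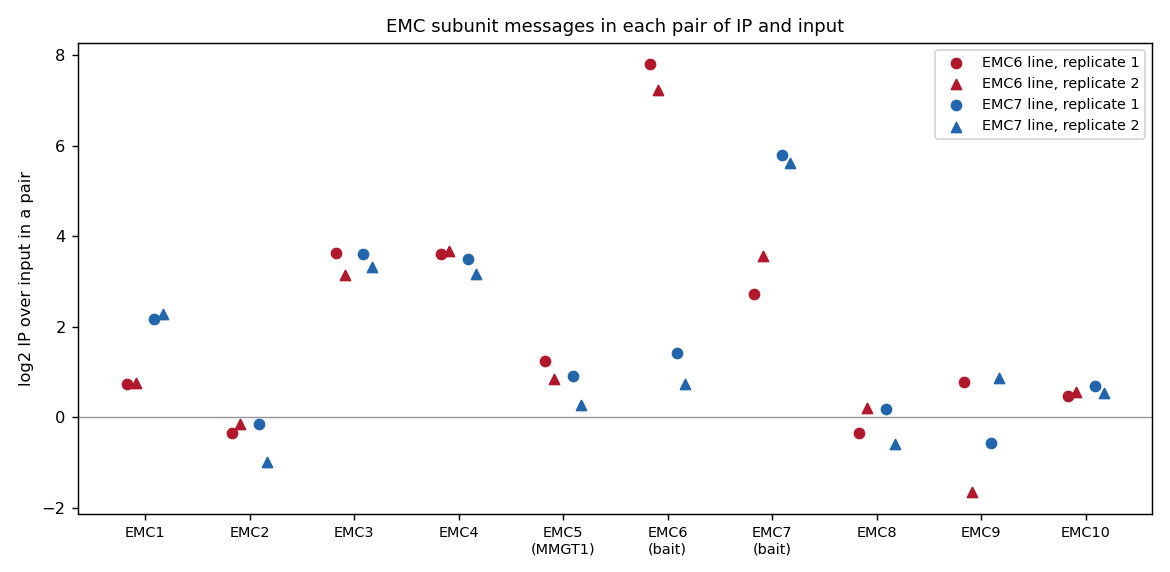
Log2 IP over input (vertical) of the 10 EMC subunit messages in each pair, in red for the EMC6 line and blue for the EMC7 line, baits marked. EMC1 separates by line (0.75 and 0.75 against 2.17 and 2.29), EMC3 overlaps between lines, and EMC9 scatters from -1.65 to 0.87 on 1 to 25 counts per library.

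The 3 genes called higher without pairing lay outside the lists. ASB13, an adaptor of a ubiquitin ligase on chromosome 10 (5638867 to 5666595, RefSeq GRCh38), was at 2.71 and 2.2 CPM in the EMC6 inputs, 92.2 and 78.7 in the EMC6 IPs, 3.00 and 4.15 in the EMC7 inputs and 7.74 and 6.70 in the EMC7 IPs. Only its EMC6 IPs were high, its difference was 4.03 ± 0.59 without pairing (adjusted p = 0.00692), and it rested on 46 and 67 counts in those IPs. MAP4, a microtubule-associated protein, and LSM4, an RNA-binding protein of the spliceosome, were high in both fractions of the EMC6 line. LSM4 was at 24200 and 32210 CPM in the EMC6 inputs and 81720 and 104700 in the EMC6 IPs, against 60.5 to 70.3 CPM over the 4 EMC7 libraries. MAP4 was at 11110 and 17430 CPM in the EMC6 inputs and 34860 and 46850 in the EMC6 IPs, against 42.4 to 101 CPM. Their differences were 1.65 ± 0.27 (adjusted p = 0.0217) and 2.41 ± 0.33 (adjusted p = 0.00398) without pairing. The rule places both in the IPs, but the inputs were higher too, by 8.75 (LSM4) and 7.25 (MAP4) on the log2 scale, so the difference of changes is a small part of the difference between lines.

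RASL10B, a small GTPase, was similar: it had 17 and 41 counts in the EMC6 inputs and 83 and 112 in the EMC6 IPs against 0 to 4 in each EMC7 library, and a paired difference of 4.36 ± 1.34 (adjusted p = 0.0226) that rests on the few counts of the EMC7 line. SHPK, a sugar kinase, lies on chromosome 17 (3608240 to 3636250), as does EMC6 (3668812 to 3669665). It had 21 and 19 counts in the EMC6 IPs against 9 and 4 in the EMC7 IPs, and a difference of 2.96 ± 0.61 (adjusted p = 7.47e-05) in the IPs. On the other side, BMP8B (-3.50 ± 0.80) and ARHGEF11 (-3.95 ± 0.95) had the largest negative differences, on 3 and 1 and on 0 and 2 counts in the EMC6 IPs.

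Of 138 tested genes with a TMEM symbol, which names proteins by a predicted transmembrane segment, 13 were higher and 7 lower. Over all genes 2.59% were higher and 3.28% lower. TMEM170A (1.64) and TMEM179B (1.39) were the highest among them, both in the inputs. Of 22 symbols of the PCDHG cluster 21 were called lower. The variants of this cluster share their last exons and thus can share reads, so they are not independent, and without them 283 genes were lower.

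Set beside the EMC10 line, whose libraries are separate from those compared, the 240 higher genes had a median change of 2.32 with EMC10, between 2.11 with EMC7 and 2.87 with EMC6. EMC10 lay between the other baits for 211 of the 240 and nearer to EMC7 for 193. The EMC10 changes come from a fit of all 14 libraries and those of EMC6 and EMC7 from the fit of 8. Each fit had its own scaling, so the order of values that lie close together is uncertain. The 304 lower genes had a median of 0.91 with EMC10, between 0.68 with EMC6 and 1.62 with EMC7, and EMC10 lay between for 256 and nearer to EMC6 for 247. Since the genes were chosen for the gap between EMC6 and EMC7, a value in between is favoured by the choice, and these counts are a description. By gene, SLC12A2 changed by 3.21 with EMC10 against 5.27 and 3.98 with EMC6 and EMC7, RPN1 by 0.54 against 0.42 and 1.71, EMC1 by 0.62 against 0.75 and 2.23, and MAN2A2 by 1.41 against 1.19 and 2.96.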

How the data were processed

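Selective ribosome profiling footprints were measured in 8 libraries. The authors deposited whole-number counts per gene symbol for each sample, not normalized, with 5 rows naming no gene, which were left out. Cutadapt 4.1, Bowtie2 2.2.6, TopHat2 2.1.0 and hg38 are named, per the submitters' processing notes. For the annotation, the strand setting and duplicate removal, nothing is given in the sources used here; overlapping and antisense genes cannot be told apart, and duplicates may be counted. Of 19440 symbols 18968 matched the RefSeq table used for positions, 413 as an older symbol only.

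Counts were fitted in edgeR 4.0.16 (R 4.3.3) with 4 group means, TMM and filterByExpr. The robust quasi-likelihood test was adjusted by Benjamini-Hochberg (0.05). It was also run on simulated counts, with an outcome not reported here. These counts gave both lines the same input profile, unlike the data, so the run does not vouch for the calls. The contrast was the change with EMC6 minus that with EMC7; the same fit compared the IPs and the inputs. A gene's difference was placed in the IPs or the inputs where that contrast was called in the direction that makes the difference, in both, or in neither. Paired calls were placed by the unpaired IP and input contrasts, which the pair fit cannot estimate. IP and input of a replicate were also fitted as pairs, with the batch label, equal to the replicate number, taken to hold within a line. A block shared by lines, another reading of that label, was an alternative. Deviations from group means correlated within pairs at 0.285 (EMC6) and 0.0742 (EMC7) over all genes and at 0.747 and 0.297 over 2311 genes of at least 100 CPM. CPM are TMM-normalised, except for marker genes. Replicates correlated at 0.913 to 0.985 on the log scale and differed by more than sampling (2.15 to 7.83 chi-square units per degree of freedom). Counts of 515302 to 3395114 per library limit low genes.

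Named genes were the 12 largest called differences a side and 5 a side and place with at least 10 CPM in a group and pairs of the lines not overlapping, the EMC subunits, and 2 called members a side of each of 28 lists; the text gives part of these and further list members, and some genes are not reported here. The rule had been written for calls without pairing and its use on paired calls came after the data were seen. Members and lists were chosen with earlier results of these data known. Alternatives were other scalings, filters, DESeq2 1.42.0, a 1.5-fold threshold, all 14 libraries, blocks (limma 3.58.1) and leaving out libraries. Predicted membrane segments, planned as a description, were not analysed, since no protein sequences were used here.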

Additional observations from a re-analysis of the deposited data

Results flagged for a closer look

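The change from input to IP differed between the EMC6 and EMC7 lines, by the test of the difference itself in edgeR without pairing, for the bait rows and 4 other genes. The bait rows differed by 6.38 (EMC6) and -2.45 (EMC7) on the log2 scale. ASB13 differed by 4.03, MAP4 by 2.41 and LSM4 by 1.65, all higher with EMC6, and EMC1 differed by -1.48, higher with EMC7. Over 20 alternative settings ASB13 was called in 16, MAP4 in 19, LSM4 in 15, EMC1 in 11, the EMC6 row in 20 and the EMC7 row in 17.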

How the results depend on the processing

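No gene named from the fit without pairing changed sign in any of 20 settings. For the difference without pairing (3 higher, 1 lower), library size alone gave 22 and 1, the list scaling 6 and 1, DESeq2 size factors 2 and 0, no filter 12 and 16, at least 20 counts 3 and 0, the DESeq2 Wald test 5 and 7, a 1.5-fold threshold 2 and 0, all 14 libraries 17 and 30, the replicate block within lines (pairs) 240 and 304, the block shared by lines 3 and 0 and the random block 74 and 95; leaving out 1 library gave 0 to 6 higher and 0 to 42 lower, the most without EMC6 input replicate 1 and 0 of both without EMC7 IP replicate 2. Of the called genes, 2, 10, 20, 9, 2, 34, 298 and 101 lay in the IPs (main 4) with DESeq2 size factors, library size, no filter, the DESeq2 Wald test, the 1.5-fold threshold, 14 libraries, pairs and the random block, 0 to 46 without 1 library; in the inputs (main 0) library size gave 10, no filter 8, the DESeq2 Wald test 3, 14 libraries 12, pairs 201, the random block 65 and leaving out 1 library 0 to 2; in both (main 0) library size gave 3, the list scaling 1, 14 libraries 1 and leaving out 1 library 0 to 1; in neither (main 0) pairs gave 45 and the random block 3.

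With pairs (240 and 304), library size gave 808 and 120, the list scaling 533 and 140, the DESeq2 Wald test 173 and 183 (354 of the 544 shared), the 1.5-fold threshold 16 and 39, and leaving out 1 pair 108 to 245 and 166 to 244. The IPs held 273 genes higher and 1222 lower in the EMC6 line; library size gave 2222 and 528, the list scaling 4168 and 262, the 1.5-fold threshold 85 and 646, the DESeq2 Wald test 129 higher, 14 libraries 421 higher, and leaving out 1 library 88 to 344 and 720 to 1433. The inputs held 583 and 1570; DESeq2 size factors gave 378 higher, library size 2154 and 1029, the list scaling 5012 and 267, the DESeq2 Wald test 118 higher, the 1.5-fold threshold 110 and 657, 14 libraries 983 higher, and leaving out 1 library 132 to 725 and 943 to 1842. Fewer libraries remain in the fits without a library; other causes were not tested. Depth limits genes with few counts in the EMC6 IPs, the shallowest libraries.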

Other observations

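Members that went against their own list are given here as values, singled out after they were seen and with no test. Among the multi-pass lists without a signal peptide, 109 of 478 tested genes were higher with EMC6 and 7 were lower: MCOLN2, ABCA3, ABCA5, PGAP1, PIGS, PIGN and PIGO. Library size alone gave 195 and 5 there, and the list scaling 163 and 5. Among single-pass lists 1 of 283 was higher and 64 lower with TMM, 25 and 25 with library size alone, and 13 and 29 with the list scaling. Among secreted or luminal lists 8 of 227 were higher and 64 lower, against 33 and 29 and against 24 and 36. Multi-pass proteins with a signal peptide gave 0 of 62 and 19, against 4 and 8 and against 2 and 8. The shares of all genes called with TMM were 2.59% and 3.28%. Of all 9273 genes, library size alone called 808 higher and 120 lower, and the list scaling 533 and 140. Subunits of 1 assembly went in both directions, STT3A at 0.80 beside RPN1 at -1.29 in the oligosaccharyltransferase, and TMEM147 at 0.53 beside NCLN at -0.94 in the BOS complex.

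Outside all lists, 102 of 7663 genes were higher and 143 lower.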
